A study of Mus musculus with 2 samples.

Results

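DNA replication genes were followed through spermatogenesis in single-cell RNA sequencing of whole mouse testis. The list held 39 genes of the replication machinery, and all 39 were found by symbol among the 41459 genes of both count matrices. The 2 libraries came from Rad21l+/+ (WT) and Rad21l-/- (KO) males, both at 55 days post-partum. Each genotype had 1 library, so there was no test and no p-value, and every interval given in parentheses is an exact 95% interval of the counting error alone. Differences between the libraries therefore describe these 2 libraries and not the genotypes. RAD21L is a kleisin subunit of cohesin found in meiotic cells. The sources used here do not say how many animals were pooled or which part of Rad21l the allele removes.

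Chromosomal DNA is copied before each mitotic division of spermatogonia and a last time in preleptotene cells, just before meiotic prophase. CDC6 and CDT1 place the ring of MCM2 to MCM7 on DNA, and CDC45 and the GINS complex turn that ring into the active helicase. Primase and polymerase alpha lay down primers, replication factor C loads the PCNA clamp, and polymerases delta and epsilon extend the strands, while RPA covers single-stranded DNA. FEN1 and LIG1 finish the lagging strand, and ribonucleotide reductase, TYMS and DUT keep the nucleotide pools. The list also holds SLBP, which binds histone mRNAs, topoisomerase TOP2A, UHRF1, which guides maintenance DNA methylation, and the chromatin remodeller HELLS.

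Cells were classed from marker genes, none of which is a member, and the class names are followed by "-like" because they rest on markers alone. After filtering, 5400 WT and 6381 KO cells were kept, with 33096309 and 28001992 UMIs in the whole deposited libraries, and the libraries shared 14 barcodes. WT held 19 undifferentiated spermatogonia-like, 123 differentiating spermatogonia-like, 54 preleptotene to leptotene-like and 47 zygotene to early pachytene-like cells, and KO held 130, 789, 363 and 225. Pachytene and diplotene-like cells (655), round spermatid-like cells (2627) and elongating spermatid-like cells (1301) were classed in WT, and 0 cells of these 3 classes in KO. Cells within 1.25 times of a limit made up 31.3% of the WT and 26.4% of the KO early germ cells. WT zygotene to early pachytene-like cells carried more pachytene markers than those of KO (41.4 against 12.7 per 10000 UMIs), so this class did not hold the same stages in both libraries. RNA of other cells was present in each early germ cell class. The 9 markers of elongating spermatids made up 0.945% to 1.23% of UMIs in the 4 WT classes, with 0 of them absent, and 0.00042% to 0.00145% in KO. The 12 Sertoli markers made up 0.0157% to 0.0199% in the same WT classes and 0.120% to 0.163% in KO, with 0 to 6 of the 12 at 0 in a class. Rad21l itself was at 156 CPM (112 to 211) in WT preleptotene to leptotene-like cells, from 41 UMIs, and at 31.0 CPM (22.8 to 41.3) in KO, from 47 UMIs.

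The summed level of the 39 genes was highest around the entry into meiosis in both libraries. Levels are given as UMIs per 1000000 UMIs of the class (CPM). In WT the sum was 4837 CPM (4463 to 5233) in undifferentiated spermatogonia-like cells, 6022 CPM (5855 to 6193) in differentiating spermatogonia-like cells and 6467 CPM (6164 to 6782) in preleptotene to leptotene-like cells. In KO the same classes were at 5157 CPM (5009 to 5307), 6495 CPM (6421 to 6569.9) and 7675 CPM (7536 to 7815). Each library thus held its highest sum in the class where premeiotic S phase falls, though not through most members in WT. Against differentiating spermatogonia-like cells, the ratio of this class was above 1 for 16 of 39 members in WT and below 1 for 23. In KO it was above 1 for 20 and below 1 for 19. Among all genes tested 47.3% were above 1 in WT and 42.9% in KO. The median log2 ratio was -0.22 for the members and -0.06 for all these genes in WT, and 0.06 and -0.14 in KO. The next class was much lower, at 3533 CPM (3330.4 to 3745) in WT and 2897 CPM (2799.5 to 2997) in KO zygotene to early pachytene-like cells. WT cells beyond it were at 2338 CPM (2314 to 2362) in pachytene and diplotene-like, 1376 CPM (1344 to 1408) in round spermatid-like and 527 CPM (513 to 543) in elongating spermatid-like cells. Sertoli-like cells, which do not divide in the adult, were at 947 CPM (846 to 1057) in WT and 781 CPM (763 to 799) in KO, so the preleptotene to leptotene-like sum was 6.83 (6.05 to 7.72) times theirs in WT and 9.83 (9.54 to 10.1) times in KO.

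**Figure D1:**
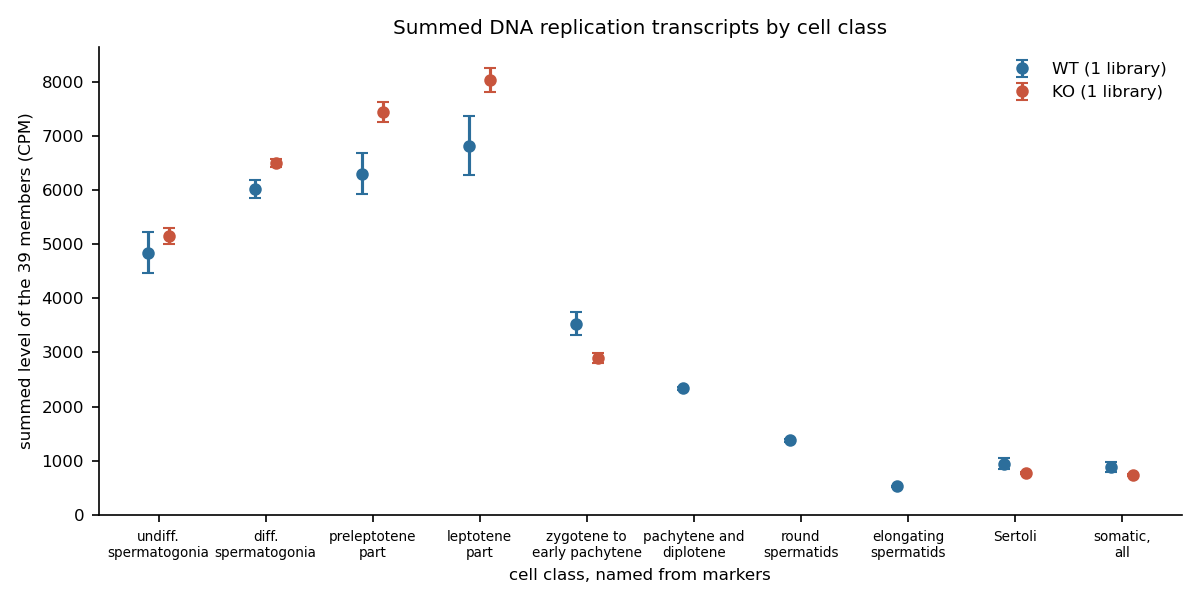
Summed level of the 39 replication genes (CPM, linear axis from 0) in each marker-named class of the WT and KO library, with exact 95% Poisson intervals as bars. The leptotene part is the highest point of each library (6805 CPM in WT, 8025 CPM in KO), and pachytene and spermatid points exist in WT only.

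The preleptotene to leptotene-like class was divided by its summed level of zygotene to early pachytene and general prophase markers. Cells under 80 per 10000 UMIs formed a preleptotene part (33 WT and 206 KO cells), and the others a leptotene part (21 and 157 cells). The sum was 6294 CPM (5927 to 6678) and 6805 CPM (6274 to 7368) in these parts in WT, and 7436 CPM (7259 to 7617) and 8025 CPM (7802 to 8253) in KO. The WT intervals overlapped and the KO intervals did not. Top2a alone gave 23.1% of the member UMIs of WT preleptotene to leptotene-like cells and 23.4% of those of KO. Without Top2a the WT order changed, with 5164 CPM in differentiating spermatogonia-like and 4972 CPM in preleptotene to leptotene-like cells, while in KO preleptotene to leptotene-like cells stayed highest at 5876 CPM.

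Single cells at equal depth showed the same fall after the preleptotene to leptotene-like class. The rise into that class was seen in the thinned medians of KO and not in those of WT. Each cell was thinned to 2000 UMIs, which left out shallower cells, most of all 1947 of 2627 round spermatid-like cells. The median member UMIs per thinned cell were 12 in WT and 13 in KO differentiating spermatogonia-like cells, and 12 and 15 in preleptotene to leptotene-like cells. They were 7 and 5 in zygotene to early pachytene-like cells, and 4, 2 and 1 in the 3 later WT classes. Before thinning, the medians per 10000 UMIs were 60.05 and 64.1, then 61.9 and 75.5, then 34.3 and 26.9. Cells without any member UMI after thinning numbered 0 among WT and KO differentiating spermatogonia-like, preleptotene to leptotene-like and zygotene to early pachytene-like cells, and 420 of 1280 elongating spermatid-like cells. Thinning draws UMIs at random, and another draw of the KO zygotene to early pachytene-like cells gave 3 of 206 such cells and a median of 6. In KO Sertoli-like cells 266 of 1203 thinned cells had none.

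**Figure D2:**
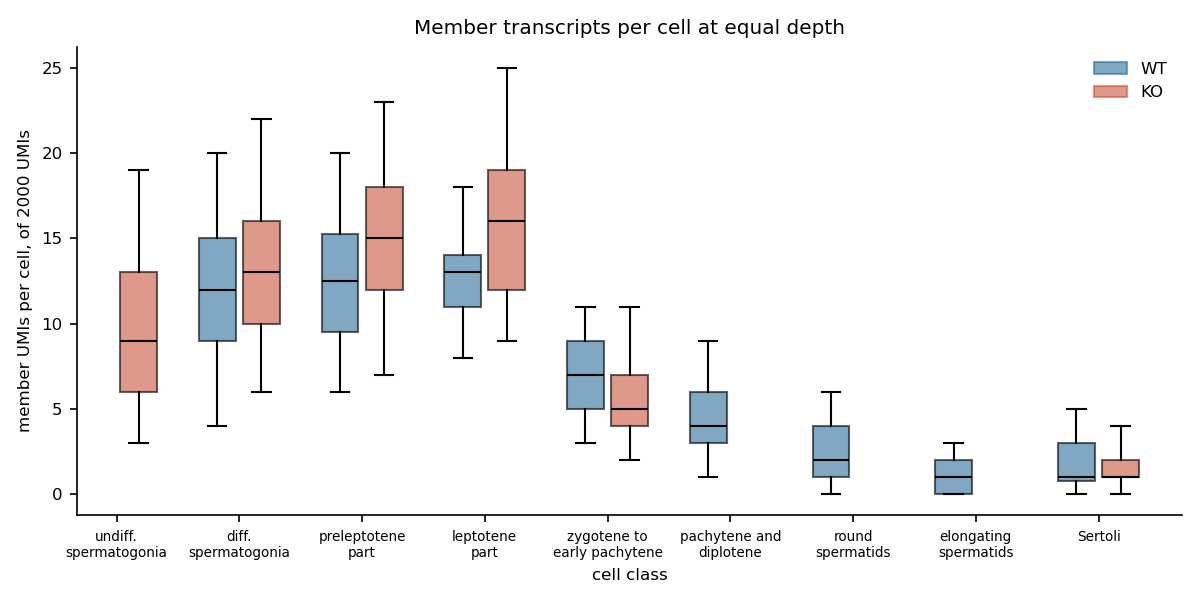
Member UMIs per cell after thinning each cell to 2000 UMIs, with the median (line), quartiles (box) and 5th to 95th percentile (whiskers) over cells of 1 library. Medians lie at 9 to 16 from spermatogonia to the leptotene part and at 7 or lower from zygotene onward, and WT undifferentiated spermatogonia-like cells (19) are not drawn.

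The start regions of the members were searched for short words. RefSeq promoters (build GRCm38.p6, while the counts were made on GRCm39) were matched by symbol for 32 members. The 250 bases before the start were searched on both strands for the E2F-type words TTTCCCGC, TTTCGCGC, TTTGCCGC and TTTGGCGC, since E2F factors are known regulators of S-phase genes, and for CCAAT, the word bound by NF-Y. An E2F-type word stood in 9 of 32 members (28.1%) and in 583 of 27025 genes (2.16%), and CCAAT in 21 of 32 members (65.6%) and in 37.5% of all genes. In member windows the 2 kinds of word overlapped in 0 cases. A match is a description of letters and not of binding. The windows below are shown because they cover different courses: the ratio of preleptotene to leptotene-like over differentiating spermatogonia-like cells had an interval above 1 for Mcm5 and Gins3 in both libraries, Hells and Top2a were highest in the leptotene part, and the interval of the same ratio held 1 for Cdc6 and Mcm6 in both libraries. Capitals mark the E2F-type words, and in Top2a CCAAT or its reverse ATTGG. In Mcm5 and in the upstream run of Mcm6, 2 words on opposite strands overlap. Mcm5 is shown at chr8:75109330-75109393, plus strand, Gins3 at chr8:95633492-95633551, plus strand and Hells at chr19:38930902-38930961, plus strand. Cdc6 is shown at chr11:98907987-98908046, plus strand, Mcm6 at chr1:128359719-128359841, minus strand and Top2a at chr11:99024190-99024439, minus strand.
Mcm5: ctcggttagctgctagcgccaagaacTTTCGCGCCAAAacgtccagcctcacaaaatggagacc
Gins3: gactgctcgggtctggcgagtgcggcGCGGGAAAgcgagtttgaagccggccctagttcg
Cdc6: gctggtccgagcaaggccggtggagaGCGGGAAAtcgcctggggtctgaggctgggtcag
Hells: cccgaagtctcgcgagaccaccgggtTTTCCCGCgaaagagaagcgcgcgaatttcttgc
Mcm6: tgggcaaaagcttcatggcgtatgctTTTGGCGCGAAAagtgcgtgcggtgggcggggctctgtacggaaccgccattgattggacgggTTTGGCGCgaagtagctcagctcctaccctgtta
Top2a: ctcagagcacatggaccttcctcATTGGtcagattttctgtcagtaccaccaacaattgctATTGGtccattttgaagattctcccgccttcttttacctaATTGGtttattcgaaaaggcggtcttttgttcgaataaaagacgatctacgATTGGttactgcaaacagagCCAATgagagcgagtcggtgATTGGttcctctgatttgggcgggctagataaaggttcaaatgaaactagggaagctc
Top2a held 6 such words in 250 bases and no E2F-type word.

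By gene, the highest germ cell class fell mostly between differentiating spermatogonia and leptotene. In KO 17 members were highest in the preleptotene part, 10 in differentiating spermatogonia-like cells, 8 in the leptotene part and 4 in undifferentiated spermatogonia-like cells. In WT the counts were 12, 10, 6 and 7, and 1 member (Slbp) was highest in zygotene to early pachytene-like cells and 3 (Gins1, Rfc2 and Rpa1) in pachytene and diplotene-like cells. The highest class was the same in both libraries for 25 of 39 members. WT was ranked over pachytene and spermatid classes as well, which KO lacked, so the rankings are not alike. For most members the highest and the next class were not apart: their intervals did not overlap for 5 members in WT (Gins4, Dut, Fen1, Top2a and Hells) and 7 in KO (Mcm2, Mcm7, Mcm10, Gins4, Rfc1, Top2a and Hells). Gins4, Top2a and Hells were in both sets. None of these counts was made for all genes, so no share over all genes stands beside them. Against differentiating spermatogonia-like cells, 5 of 39 members were at least 2-fold higher in preleptotene to leptotene-like cells of WT (10.2% of all genes) and 7 were lower (16.3%). In KO 5 were higher (9.45% of all genes) and 1, Cdt1, was lower (15.8%). Gins2, Gins3, Prim1 and Rrm2 were higher in both libraries, with Pole in WT and Mcm5 in KO, and Cdt1 was lower in both.

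**Figure D3:**
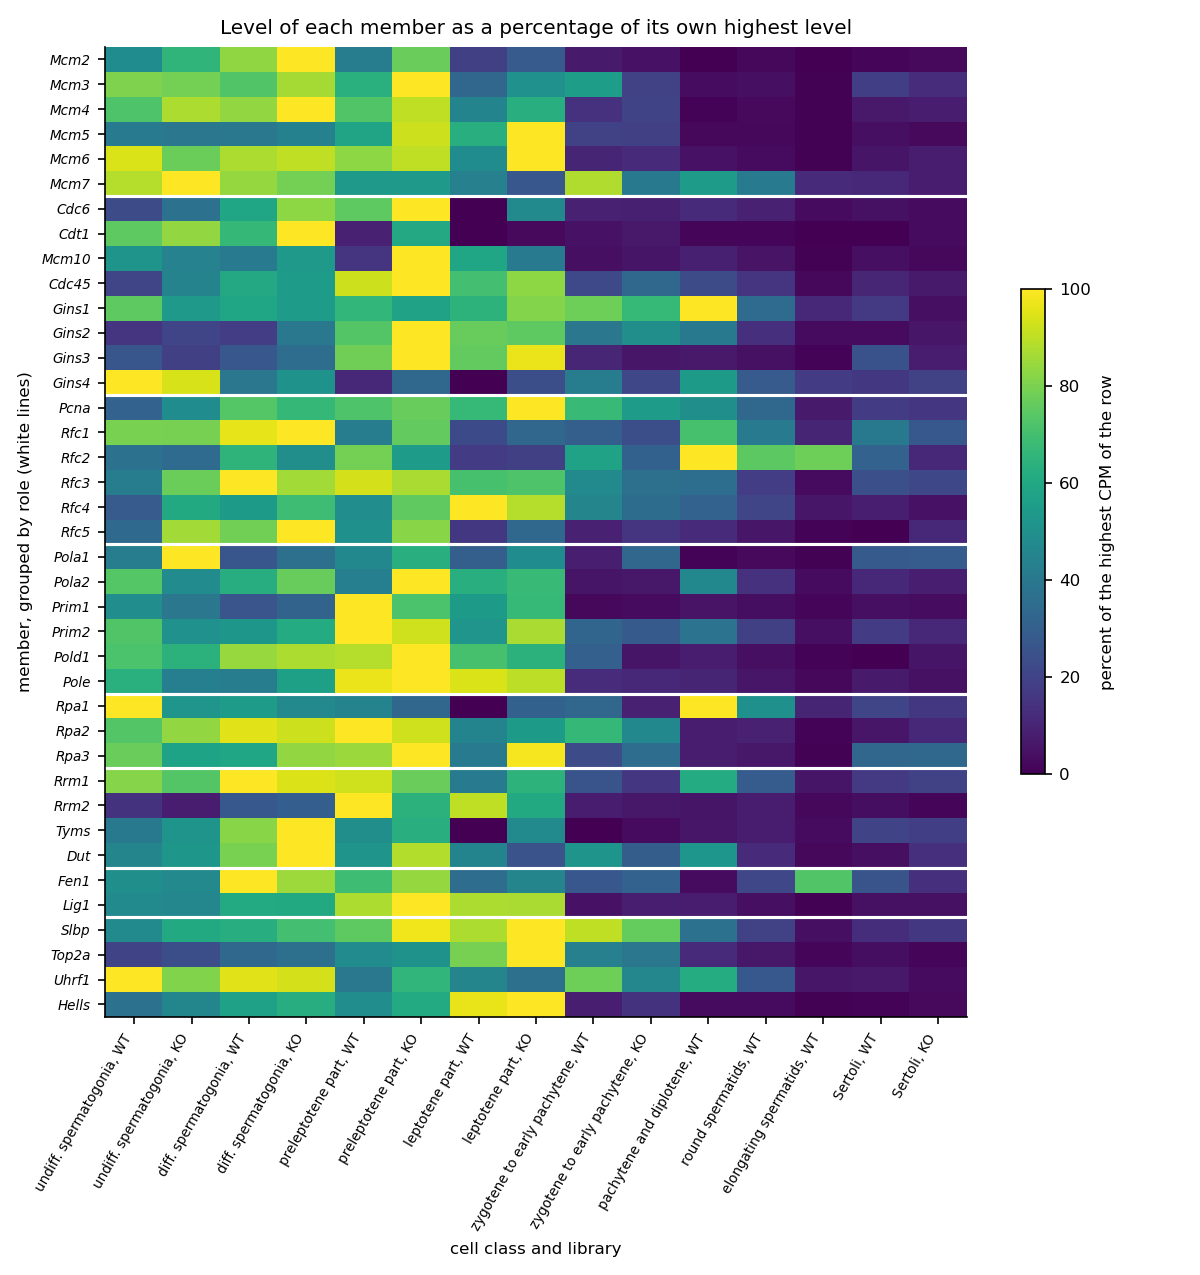
Level of each of the 39 members (rows, grouped by role) in each class and library (columns), as a percentage of the highest CPM of the row. Most rows are brightest between differentiating spermatogonia and the leptotene part, and Rfc2, Rpa1 and Gins1 are bright again in WT pachytene and diplotene-like cells.

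The MCM helicase genes did not share 1 course: Mcm2 and Mcm4 were highest in differentiating spermatogonia-like cells and Mcm5 in the leptotene part of both libraries. Their sum in differentiating spermatogonia-like, preleptotene part and leptotene part cells was 1045, 879 and 616 CPM in WT. KO held 1142, 1181 and 873 CPM. Mcm2 stood at 177 CPM (165 to 189) in KO differentiating spermatogonia-like cells, 136 CPM (113 to 163) in the preleptotene part, 50.6 CPM (34.4 to 71.8) in the leptotene part and 8.72 CPM (4.18 to 16.04) in zygotene to early pachytene-like cells. In WT the same 4 classes were at 147, 74.7, 33.6 and 12.5 CPM. There 3 UMIs amount to 33.6 CPM in the leptotene part and 9.34 CPM in zygotene to early pachytene-like cells. Mcm2 was thus lower at each step in both libraries, but the last WT levels rest on few UMIs. Mcm5 had another course and was at 114 CPM (92.2 to 139.9) in WT and 126 CPM (115 to 136) in KO differentiating spermatogonia-like cells, against 171 CPM (125 to 229) and 273 CPM (247 to 300.4) in preleptotene to leptotene-like cells. Its neighbour in the ring, Mcm3, was at 235, 272, 137 and 53.2 CPM in KO and 198, 172, 89.5 and 153 CPM in WT over the 4 classes from differentiating spermatogonia to zygotene. Mcm4 and Mcm6 were at 145 and 182 CPM in WT differentiating spermatogonia-like cells and at 24.9 and 21.8 CPM in zygotene to early pachytene-like cells. Mcm7 alone of the 6 kept a level over 100 CPM in WT pachytene and diplotene-like (169 CPM (163 to 176)) and round spermatid-like cells (126 CPM (117 to 136)), where the other 5 were at 0.560 to 10.3 CPM and 3.69 to 11.6 CPM. The annotated Ap4m1 gene overlaps Mcm7, and the sources used here do not say whether counting used strand.

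**Figure D4:**
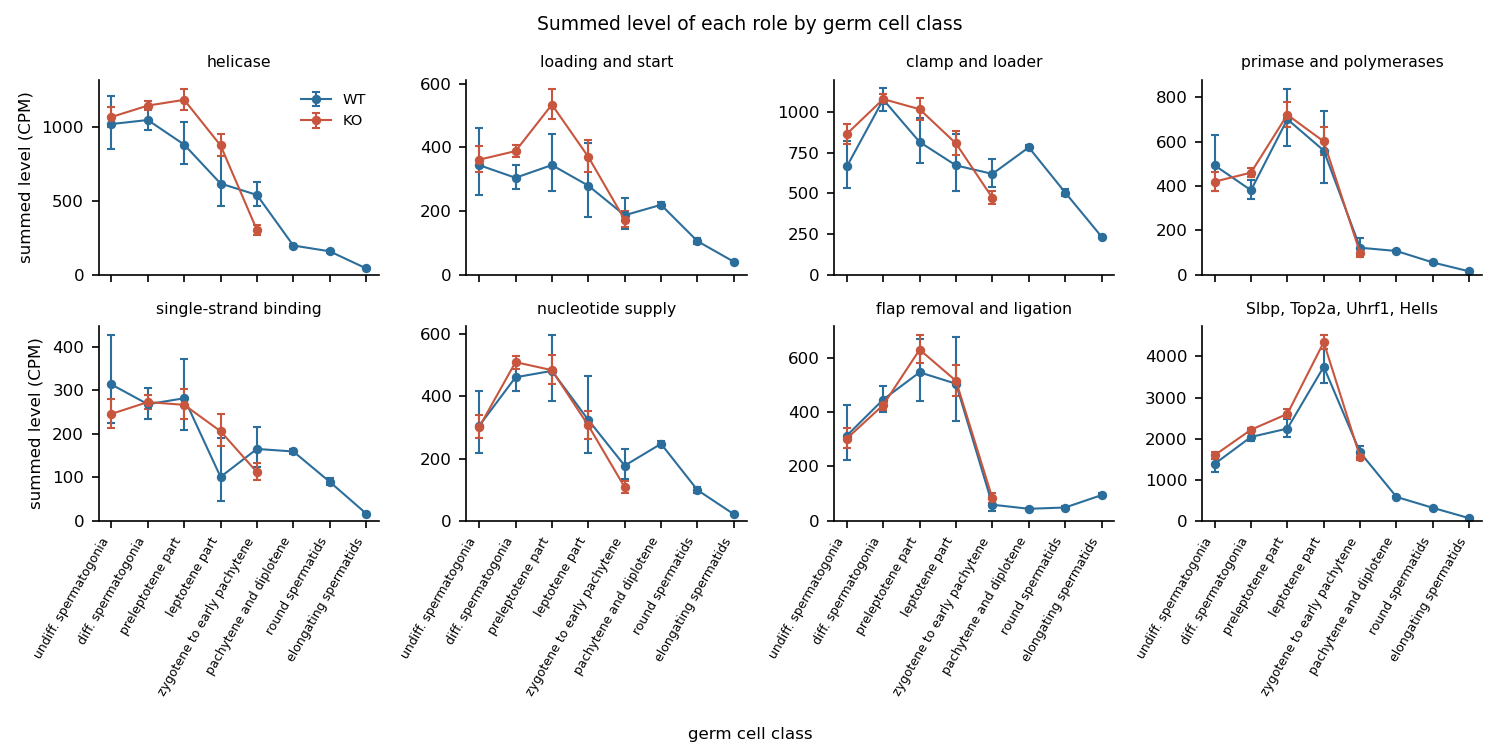
Summed level of the members of each role (CPM, linear axes from 0 that differ between panels) over the germ cell classes of WT and KO, with exact 95% Poisson intervals. The polymerase, ligation and loading panels have their highest KO point in the preleptotene part, the panel with Top2a and Hells in the leptotene part, and the WT points of the clamp and loader panel stay above 500 CPM up to round spermatids.

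Genes that license and start replication differed in timing. The licensing factor Cdt1 was at 41.7 CPM (28.9 to 58.3) in WT and 62.6 CPM (55.5 to 70.3) in KO differentiating spermatogonia-like cells. In preleptotene to leptotene-like cells it was at 3.80 CPM (0.0961 to 21.1) from 1 UMI in WT and 23.1 CPM (16.1 to 32.1) from 35 UMIs in KO, of which 1 lay in the leptotene part. Cdt1 was thus lower in this class in both libraries, at 0.0909 (0.00224 to 0.542) times in WT, or 0.273 with its 1 UMI set to the floor of 3, and 0.370 (0.252 to 0.526) times in KO. Cdc6, which loads the helicase with it, was at 57.0 CPM in KO differentiating spermatogonia-like cells, 68.8 CPM in the preleptotene part and 32.6 CPM in the leptotene part. Gins2 and Gins3, genes of the active helicase, went the other way. The GINS subunit Gins2 was at 18.4 CPM (10.3 to 30.4) and 40.8 CPM (35.1 to 47.2) in differentiating spermatogonia-like cells and at 75.9 CPM (46.4 to 117) and 91.8 CPM (77.2 to 108) in preleptotene to leptotene-like cells of WT and KO. Gins3 was at 15.96 and 21.1 CPM, then 45.5 and 58.1 CPM. Gins4 had a course of its own, with 149 CPM (89.5 to 232) and 139 CPM (116 to 166) in undifferentiated spermatogonia-like cells, 58.9 CPM (43.5 to 78.1) and 75.9 CPM (68.0 to 84.3) in differentiating spermatogonia-like cells, and 11.4 CPM (2.35 to 33.3) and 44.2 CPM (34.3 to 56.2) in preleptotene to leptotene-like cells. The 4 subunits of 1 complex therefore did not share a course. Gins1 was nearly level across the early classes, at 27.9, 28.8, 29.9, 42.4 and 34.9 CPM in KO and 39.1, 30.7, 34.5, 33.6 and 40.5 CPM in WT from undifferentiated spermatogonia to zygotene. Cdc45 was at 94.9 CPM (61.4 to 140.1) and 104 CPM (88.7 to 122) in preleptotene to leptotene-like cells.

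The summed primase and polymerase genes were higher in the preleptotene part than in differentiating spermatogonia-like cells. Their sum was 381 CPM (339 to 425) in WT and 460.0 CPM (440.4 to 480.3) in KO differentiating spermatogonia-like cells, and 701 CPM (582 to 836) and 721 CPM (667 to 779) in the preleptotene part. Pole, the catalytic subunit of polymerase epsilon, was at 124 CPM (101 to 151) and 168 CPM (157 to 181) in differentiating spermatogonia-like cells and 285 CPM (224 to 357) and 284 CPM (258 to 312) in preleptotene to leptotene-like cells. The primase subunit Prim1 was at 38.1 and 45.9 CPM, then 121 and 100.4 CPM, and only 3.11 and 4.36 CPM in zygotene to early pachytene-like cells. Pold1, the catalytic subunit of polymerase delta, did not show this difference, with 120.3 CPM (97.7 to 147) and 125 CPM (115 to 135) in differentiating spermatogonia-like cells against 118 CPM (79.9 to 167) and 122 CPM (105 to 140.4). Pola2 was at 40.8 CPM in KO differentiating spermatogonia-like cells and 46.2 CPM in preleptotene to leptotene-like cells, and Prim2 at 53.0 and 77.9 CPM. Pola1, the catalytic subunit of polymerase alpha, lies on the X chromosome and had its highest KO level in undifferentiated spermatogonia-like cells, at 73.6 CPM (56.9 to 93.7), against 27.3 CPM (22.7 to 32.6) in differentiating spermatogonia-like cells.

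Lig1, which seals the nicks between Okazaki fragments, was at 320.4 CPM (283 to 362) in WT and 319 CPM (302 to 336) in KO differentiating spermatogonia-like cells. It was at 459 CPM (381 to 549) and 497 CPM (462 to 533) in preleptotene to leptotene-like cells and at 24.9 CPM (10.8 to 49.1) and 43.6 CPM (32.4 to 57.5) in zygotene to early pachytene-like cells. The last step was 0.0542 (0.0229 to 0.110) times in WT and 0.0878 (0.0646 to 0.117) times in KO, so little Lig1 RNA was counted after leptotene in either library. Fen1, the flap nuclease that works beside it, was instead highest in differentiating spermatogonia-like cells, at 125 CPM (102 to 152) and 107 CPM (97.6 to 117). In KO the preleptotene part was nearly level with this, at 105 CPM, with intervals that overlapped. Rrm2, the ribonucleotide reductase subunit made in S phase, was at 44.2 CPM (31.0 to 61.2) and 47.9 CPM (41.7 to 54.7) in differentiating spermatogonia-like cells and 156 CPM (112 to 211) and 101 CPM (85.7 to 118) in preleptotene to leptotene-like cells. Its partner Rrm1 was at 192 and 182 CPM, then 144 and 138 CPM. Dut, which removes dUTP, and the thymidylate synthase gene Tyms were highest in differentiating spermatogonia-like cells, Dut at 178 CPM (150.2 to 209) and 223 CPM (209 to 237) and Tyms at 47.9 CPM (34.0 to 65.5) and 58.1 CPM (51.3 to 65.6). By highest class the nucleotide genes thus split, with Rrm2 highest in the preleptotene part and Rrm1, Dut and Tyms before it in both libraries. The intervals of the highest and next class overlapped for each of them in KO and for all but Dut in WT.

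RNA of the clamp and its loader was counted well beyond the replicating classes. Rfc1, the large loader subunit, was at 435 CPM (391 to 482) in WT and 451 CPM (432 to 471) in KO differentiating spermatogonia-like cells and at 159 CPM (115 to 215) and 264 CPM (239 to 291) in preleptotene to leptotene-like cells. Among pachytene and diplotene-like cells of WT, Rfc1 was higher again, at 319 CPM (310.5 to 328). Rfc2 was at 123 and 93.6 CPM in differentiating spermatogonia-like cells, 189 CPM (182 to 196) in WT pachytene and diplotene-like cells and 147 CPM (139 to 155) in elongating spermatid-like cells. Pcna, the clamp itself, differed beyond counting error between the 3 classes from differentiating spermatogonia to zygotene in KO and not in WT, with 221 CPM (189.9 to 256) and 201 CPM (188 to 214) in differentiating spermatogonia-like, 213 CPM (161 to 276) and 259 CPM (234 to 286) in preleptotene to leptotene-like and 202 CPM (156 to 258) and 166 CPM (143 to 191) in zygotene to early pachytene-like cells. Rfc4 was highest in the leptotene part, at 246 and 219 CPM, Rfc3 was at 94.9 and 89.8 CPM in preleptotene to leptotene-like cells, and Rfc5 was at 68.8 CPM in KO differentiating spermatogonia-like and 22.9 CPM in leptotene part cells. The loader subunits thus had their highest points in different classes, although the intervals of the highest and next class overlapped for all but Rfc1 in KO. Of the RPA genes, Rpa2 was at 142 CPM (118 to 171) and 138 CPM (128 to 149) in differentiating spermatogonia-like cells and Rpa1 at 77.3 CPM (59.4 to 99.0) and 66.5 CPM (59.2 to 74.5). Among pachytene and diplotene-like cells of WT, Rpa1 was at 141 CPM (136 to 147) while Rpa2 was at 11.8 CPM (10.1 to 13.6) and Rpa3 at 6.096 CPM (4.95 to 7.43), although the 3 proteins form 1 complex. Smyd4 overlaps Rpa1, and Eif4a2 overlaps Rfc4.

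Top2a and Hells were highest in the leptotene part of both libraries, apart from the next class. Top2a, which untangles sister chromosomes, was at 606, 940.5, 1295, 2538 and 1002 CPM in KO and 524, 858, 1229, 2015 and 1105 CPM in WT from undifferentiated spermatogonia to zygotene. Its leptotene part interval was 2414 to 2668 CPM in KO and 1731 to 2331 CPM in WT. Hells, a remodeller needed for DNA methylation, was at 642, 873, 857, 1401 and 206 CPM in KO and 524, 803, 689, 1354 and 115 CPM in WT over the same classes. After leptotene the 2 genes parted: Hells was 0.191 (0.166 to 0.219) times its preleptotene to leptotene-like level in KO zygotene to early pachytene-like cells, and Top2a 0.557 (0.519 to 0.597) times. Uhrf1 went the other way and was at 165 CPM (138 to 195) and 161 CPM (149 to 173) in differentiating spermatogonia-like cells against 72.1 CPM (43.4 to 113) and 93.1 CPM (78.4 to 109.8) in preleptotene to leptotene-like cells. Slbp was at 302 and 344 CPM in the leptotene part and at 311 CPM (253 to 379) and 263 CPM (235 to 295) in zygotene to early pachytene-like cells.

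The step out of the preleptotene to leptotene-like class was the largest of the early course. In KO the summed zygotene to early pachytene-like level was 0.378 (0.363 to 0.392) times the preceding class, and in WT 0.546 (0.506 to 0.589) times. In KO 28 of 39 members were at least 2-fold lower after this step and 0 were higher, where 20.7% of all genes with at least 20 UMIs were lower and 15.7% higher. The median log2 ratio was -1.80 for the members and -0.11 for all these genes. By role, 5 of 6 helicase, 5 of 8 loading, 4 of 6 clamp and loader, 5 of 6 primase and polymerase, 2 of 3 RPA, 4 of 4 nucleotide and 2 of 2 ligation genes were lower, but 1 of 4 (Hells) among Slbp, Top2a, Uhrf1 and Hells. Prim1 was lowest against the preceding class in KO, at 0.0435 (0.0139 to 0.104) times, from 5 UMIs in the later class. The 11 members that were not 2-fold lower were Mcm7, Gins1, Gins2, Gins4, Pcna, Rfc2, Pola1, Rpa2, Slbp, Top2a and Uhrf1. In WT 31 members reached 20 UMIs in both classes together, of which 15 were at least 2-fold lower (17.9% of all genes) and 1, Gins4, was higher (17.6%).

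Later spermatocytes and spermatids of WT kept a small set of members. Of 39 members, 24 were at least 2-fold lower in later spermatocyte-like cells (zygotene to diplotene) than in differentiating spermatogonia-like cells, where 37.4% of all genes were, and the sum was 0.392 (0.381 to 0.404) times. Gins2 was at least 2-fold higher, at 2.24 (1.35 to 4.02) times, where 20.5% of all genes were. In KO, where this class held no pachytene and diplotene-like cells, 28 of 39 members were lower (26.9% of all genes), 0 were higher (15.7%) and the sum was 0.446 (0.430 to 0.462) times. In WT the helicase genes Mcm2 and Mcm4 were at 0.560 and 1.49 CPM in pachytene and diplotene-like cells. Besides Rfc1, Rfc2, Mcm7 and Rpa1, the members above 100 CPM there were Top2a at 306, Pcna at 149, Slbp at 129, Rrm1 at 118, Dut at 117 and Uhrf1 at 107 CPM. Gins1 and Gins4 stood at 52.0 CPM (48.5 to 55.6) and 80.9 CPM (76.5 to 85.4), and Gins2 at 41.2 CPM (38.1 to 44.4). From pachytene to round spermatid-like cells the sum was 0.589 (0.574 to 0.604) times, and from round to elongating spermatid-like cells 0.383 (0.369 to 0.398) times.

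Fen1 was higher at each step after meiotic prophase in WT. It was at 3.61 CPM (2.74 to 4.66) in pachytene and diplotene-like, 26.6 CPM (22.3 to 31.4) in round spermatid-like and 91.2 CPM (85.0 to 97.7) in elongating spermatid-like cells, from 58, 137 and 816 UMIs. The intervals of these 3 levels did not overlap. The round spermatid-like class was set without round spermatid markers (above), and the part of RNA from other cells in its level was not tested. From pachytene to round spermatid-like cells 3 of 37 members (Mcm2, Mcm4 and Fen1) were at least 2-fold higher, where 36.4% of all genes were, and 7 were lower, where 16.6% were. Mcm2 and Mcm4 were at 3.69 and 4.27 CPM in round spermatid-like cells, from 19 and 22 UMIs. From round to elongating spermatid-like cells Fen1 was the 1 member at least 2-fold higher of 37 with enough UMIs, where 6.38% of all genes were, and 34 were lower, where 69.8% were. Tmem258, an annotated neighbour that overlaps Fen1, had the opposite order, at 256, 155 and 48.4 CPM. KO held no such cells, and Fen1 in KO zygotene to early pachytene-like cells was at 39.3 CPM (28.6 to 52.5). The sum of flap removal and ligation genes therefore ended at 94.3 CPM in elongating spermatid-like cells against 44.2 CPM in pachytene and diplotene-like cells, while the other 7 roles were lower in the later class.

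Between the libraries the members were close in spermatogonia-like cells. The KO sum was 1.08 (1.05 to 1.11) times the WT sum in differentiating spermatogonia-like cells, a log2 ratio of 0.11, while the median log2 ratio was 0.17 for the members and 0.12 for all genes tested. One member, Gins2, was at least 2-fold higher in KO (1 of 39, against 7.32% of all genes) and 0 were lower (9.91% of all genes). The Gins2 ratio was 2.22 (1.31 to 4.04), from 184 KO and 15 WT UMIs, and the annotated Gse1 gene overlaps it. WT held 19 undifferentiated spermatogonia-like cells, so levels of this class stand side by side. Of the 37 members with enough UMIs, 17 were higher and 20 lower in KO, where 54.6% of all genes tested were higher. At least 2-fold higher were 4 members (5.91% of all genes), and 0 were lower (6.85%). Of these 4, Cdc45 was at 23.5 CPM (4.84 to 68.6) in WT and 50.2 CPM (36.6 to 67.2) in KO, Rfc4 at 70.4 CPM (32.2 to 134) and 149 CPM (125 to 177), Rfc5 at 23.5 CPM (4.84 to 68.6) and 59.1 CPM (44.3 to 77.3), and Pola1 at 31.3 CPM (8.53 to 80.2) and 73.6 CPM (56.9 to 93.7). Of these 4 pairs the intervals of each overlapped.

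In preleptotene to leptotene-like cells the KO sum was 1.19 (1.13 to 1.25) times that of WT, a log2 ratio of 0.25. The median log2 ratio was 0.29 for the members and 0.18 for all genes tested. With the median gene set to no difference, the sum was 1.05 times (log2 0.07), with an interval that reached below 0 on the log2 scale. The ratio was above 1 for 31 of 39 members and for 63.6% of all genes tested, and it was above that of the median gene for 25 of 39. At least 2-fold higher in KO were 3 of 39 members, against 8.63% of all genes, and 0 were lower, against 8.16%. The share of members higher was thus near that of all genes. The 3 were Cdt1 at 6.09 (1.02 to 247), Gins4 at 3.89 (1.27 to 19.3) and Mcm10, which joins the helicase to the primase complex, at 2.52 (1.11 to 7.06) times. They rest on 1, 3 and 6 WT UMIs, and with the WT count of Cdt1 set to 3 its ratio was 2.03. Cdt1 did not reach both 2-fold and 20 UMIs with at least 1000 genes per cell, with stricter limits on markers, with 10% free RNA taken off and with the median gene at a ratio of 1, and Mcm10 with stricter limits. As a role the loading and start genes were at 323 CPM (258 to 399) in WT and 468 CPM (434 to 504) in KO, and 6 of the 8 had a ratio above that of the median gene. Helicase genes were at 789 CPM (686 to 904) and 1057 CPM (1006 to 1109.7), with Mcm7 the exception at 0.849 (0.604 to 1.22) times, while primase and polymerase genes were at 653 CPM (559 to 758) and 672 CPM (632 to 715). In the same classes elongating spermatid markers took 1.23% of WT and 0.00053% of KO UMIs, and the part of that RNA in the difference was not tested beyond the removal of a fixed 10%, which left the ratio at 1.18.

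Within the parts the picture by gene was thinner. In the preleptotene part 4 of 39 members were at least 2-fold higher in KO (9.04% of all genes) and 0 lower (6.82%), namely Cdt1, Mcm10, Gins4 and Pola2, the last at 2.32 (0.849 to 8.85) times. In the leptotene part 36 members reached 20 UMIs, and Mcm6 at 2.06 (1.05 to 4.60) and Rpa3 at 2.38 (0.769 to 11.9) times were the members past 2-fold, where 7.36% of all genes were higher and 6.31% lower. Mcm10 was at 11.5 and 44.8 CPM in the preleptotene and leptotene parts of WT and at 75.4 and 31.0 CPM in KO, from 2 and 4 WT UMIs.

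Zygotene to early pachytene-like cells differed the other way, with a KO sum 0.820 (0.766 to 0.878) times that of WT, in a class whose WT cells carried more pachytene markers. Of the 29 members with at least 20 UMIs, 4 were at least 2-fold lower in KO (11.8% of all genes) and 1 was higher (18.3%). Mcm3 was at 153 CPM (113 to 202) in WT and 53.2 CPM (40.7 to 68.4) in KO, and Mcm7 at 271 CPM (217 to 334) and 125 CPM (105 to 147). Both helicase genes were thus lower in KO beyond counting error. Pold1 was at 43.6 CPM (23.8 to 73.1) and 7.85 CPM (3.59 to 14.9), and Rpa1 at 46.7 CPM (26.1 to 77.0) and 13.1 CPM (7.32 to 21.6). Rpa1 and Mcm7 stayed high in WT pachytene and diplotene-like cells (above), whereas Mcm3 and Pold1 were at 9.33 and 10.6 CPM there. The 1 member higher in KO was X-linked Pola1, at 6.23 CPM (0.754 to 22.5) in WT and 24.4 CPM (16.2 to 35.3) in KO, a ratio of 3.92 (0.989 to 34.0) on 2 and 28 UMIs. Stage and genotype cannot be told apart in this class.

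**Figure D5:**
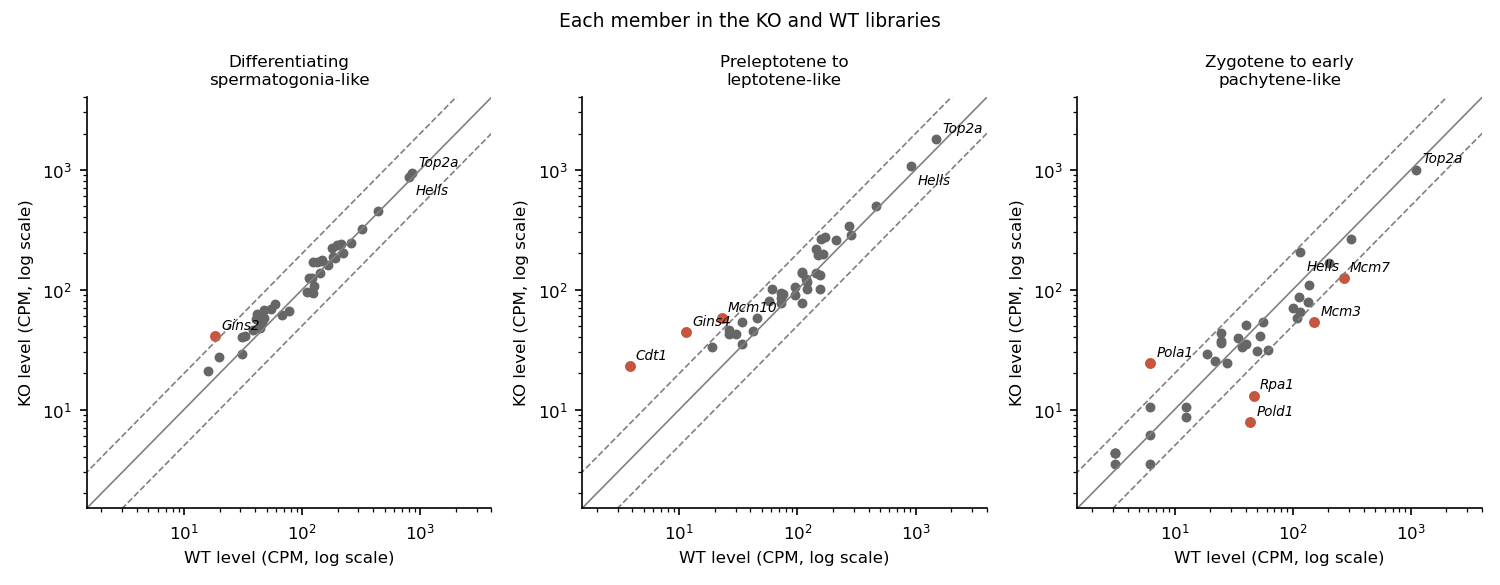
Level of each member in KO against WT (CPM, log axes) in 3 classes, with the line of equal levels (solid) and the 2-fold lines (dashed). Members at least 2-fold apart with 20 or more UMIs are coloured and named (1, 3 and 5 members from left to right), and members at 0 in a library are not drawn.

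Sertoli-like cells, 39 in WT and 1622 in KO, served as a class without replication. The KO sum was 0.825 (0.737 to 0.926) times that of WT, and 7 of the 37 members with enough UMIs were at least 2-fold lower (22% of all genes) and 2 higher (5.86%). Top2a was at 89.3 CPM (60.3 to 128) in WT and 42.5 CPM (38.4 to 46.9) in KO, and Rfc2 at 59.6 CPM (36.4 to 92.0) and 21.9 CPM (19.0 to 25.1). Dut at 3.33 (1.13 to 16.2) and Hells at 2.22 (0.941 to 6.88) times were higher in KO, and Cdc6, Gins1, Gins3, Rrm2 and Uhrf1 were lower, all 5 on 5 or fewer WT UMIs. A member level near or below the Sertoli-like level of the same library is given no weight here. Examples are Pold1 and Tyms in zygotene to early pachytene-like cells of KO (7.85 and 1.74 CPM, against 8.13 and 10.7 CPM). Whether the Sertoli-like level is RNA of other cells or of the Sertoli-like cells themselves was not tested. The summed level in other somatic classes of KO was 555 CPM in Leydig-like, 846 CPM in stromal-like, 713 CPM in myoid-like, 696 CPM in endothelial-like, 1032 CPM in myeloid-like and 1399 CPM (1035 to 1849.5) in lymphocyte-like cells, the last from 15 cells.

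Other genes of the replication pathway, a list of 54, were also highest as a sum in preleptotene to leptotene-like cells among these 3 classes. Their sum was 4810.4 CPM (4661 to 4963) and 5069 CPM (5003 to 5135) in differentiating spermatogonia-like cells of WT and KO, 5537 CPM (5257 to 5829) and 6089 CPM (5965 to 6215) in preleptotene to leptotene-like cells, and 2745 CPM (2567 to 2933) and 2824 CPM (2727 to 2923) in zygotene to early pachytene-like cells. In WT their sum was 5656 CPM (5309 to 6021) in the preleptotene part and 5305 CPM (4838 to 5805) in the leptotene part, an order opposite to that of the members, with intervals that overlapped in both lists. Between the libraries 1 of 52 with enough UMIs was at least 2-fold higher in KO (7.32% of all genes) and 2 lower (9.91%) in differentiating spermatogonia-like cells. In preleptotene to leptotene-like cells 1 of 50 was higher (8.63% of all genes) and 1 lower (8.16%). The RNase H2 subunit Rnaseh2a was the lowest of them in both, at 142 CPM (118 to 171) in WT and 43.9 CPM (38.0 to 50.5) in KO differentiating spermatogonia-like cells. It was also at 506 CPM in WT pachytene and diplotene-like and 482 CPM in elongating spermatid-like cells. Markers of those cells were present in every WT class, and the part of their RNA in the difference was not tested. The next lowest in differentiating spermatogonia-like cells were E2f8 at 0.470 (0.292 to 0.778) and Dscc1 at 0.659 (0.439 to 1.01) times, and the highest were Chaf1b at 4.52 (1.19 to 38.3), Rrm2b at 1.90 (0.992 to 4.07) and E2f2 at 1.83 (0.921 to 4.12) times. In preleptotene to leptotene-like cells Rnaseh2c at 0.779 (0.492 to 1.28) and Orc1 at 0.791 (0.495 to 1.32) times followed Rnaseh2a, and with counts under 3 set to 3 the highest were Pold2, Rnaseh2b and Cdc25a. Pold2 was at 4.79 (1.26 to 40.5) times on 2 WT UMIs, Rnaseh2b at 1.64 (0.653 to 5.27) and Cdc25a at 1.62 (1.03 to 2.67) times.

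Of the meiotic relatives, Mcmdc2 and Top2b were higher at each step from differentiating spermatogonia to zygotene in KO. These steps are given without intervals, as an order of levels, and are not claimed to lie beyond counting error. Meiob, a meiotic relative of the RPA large subunit, was at 4.88, 9.98, 111 and 174 CPM in KO from differentiating spermatogonia to zygotene, and its partner Spata22 at 7.32, 22.2, 121 and 98.6 CPM. Mcmdc2, an MCM-like protein of recombination, was at 1.77, 11.1, 21.2 and 32.3 CPM, and Top2b, the second type II topoisomerase, at 68.1, 214, 317 and 340.2 CPM. In WT zygotene to early pachytene-like cells these 4 were at 137 CPM (99.5 to 184), 90.3 CPM (60.5 to 129.6), 56.0 CPM (33.2 to 88.6) and 271 CPM (217 to 334). Meiob is itself among the markers that set that class and the division into preleptotene and leptotene parts. Its level in that class and its step between the parts are therefore no result. In preleptotene to leptotene-like cells Mcm8 was at 68.3 and 79.2 CPM, Mcm9 was at 15.2 and 41.6 CPM, and Uhrf2 was at 43.0 CPM in KO differentiating spermatogonia-like and 67.2 CPM in zygotene to early pachytene-like cells. Prdm9, a marker of the preleptotene to leptotene-like class, was at 604 and 571 CPM in the leptotene part.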

How the data were processed

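Single-cell RNA was counted in 1 WT and 1 KO library. The deposited tables give unnormalized UMI counts of each gene in each cell barcode. Per the submitters' processing notes they were made with Cell Ranger 6.1.2 on GRCm39, and Seurat 4.3 is also named. How cells were called and whether counting used strand is not given in the sources used here. The members and all lists were chosen with earlier results of these data known.

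Cells with at least 500 genes and at most 20% mitochondrial UMIs (24 genes) were kept. Cells with at least 1000 UMIs were classed by limits on marker UMIs per 10000 UMIs, set after marker levels were seen, from 140 markers in 16 lists. Cells with markers of 2 lineages (144 WT, 167 KO) were left out as possible doublets. Class totals of UMIs were taken within each library and expressed as CPM. Levels have exact Poisson and ratios exact conditional binomial 95% intervals, which cover counting error only. A gene was called at a 2-fold ratio with at least 20 UMIs in both groups together, with counts under 3 set to 3. The calls were run on simulated counts with set changes larger than 2-fold, in genes with enough expected UMIs in both libraries. That run does not cover calls near 2-fold or on few UMIs, such as Cdt1, Gins4 and Mcm10 in preleptotene to leptotene-like cells. The 2 members with the most UMIs of each role, members past 2-fold between libraries, the 3 highest and 3 lowest other pathway genes and 8 meiotic relatives are named by rule, and other members were chosen after their values were seen. Python 3.11.15, scipy 1.17.1 and Scanpy 1.11.5 were used.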

Additional observations from a re-analysis of the deposited data

How the results depend on the processing

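Counts were recomputed under 7 alternatives fixed before these recalculations: at least 1000 genes per cell, clusters in place of gates, stricter gates, doublet calls left out, 10% of each class taken off as free RNA, the median gene held at a ratio of 1, and the sum without Top2a. Of 36 levels and ratios, 21 stayed within the interval of the value reported. The preleptotene to leptotene-like sum moved to 6942 CPM in WT and 7951 CPM in KO with stricter gates, to 6965 and 8245 CPM with free RNA taken off, to 4972 and 5876 CPM without Top2a, and to 8033 CPM in KO with clusters. The KO over WT log2 ratio with the median gene at a ratio of 1 changed sign in differentiating spermatogonia-like cells, to -0.00727, and was 0.0693 in preleptotene to leptotene-like cells. Members past 2-fold numbered 0 in differentiating spermatogonia-like cells with clusters and, in preleptotene to leptotene-like cells, 6 with stricter gates and 2 in place of 3 with at least 1000 genes, with free RNA taken off and with the median gene at a ratio of 1. Of those 3, Cdt1 was lost under these 4 alternatives and Mcm10 with stricter gates, and Gins4 remained in each alternative that gave the class. The matching shares over all genes were not computed under the alternatives. The log2 ratio of later spermatocyte-like over differentiating spermatogonia-like cells was -1.29 with clusters and -1.43 with free RNA taken off in WT, and -1.22 with clusters, -1.23 with stricter gates, -1.24 with free RNA taken off and -1.55 without Top2a in KO. The cause of these shifts was not tested. Clusters gave no WT preleptotene to leptotene-like class, so its values could not be had. They also gave 0 WT undifferentiated spermatogonia-like and 0 zygotene to early pachytene-like cells, and 160 differentiating spermatogonia-like cells in place of 123. The WT later spermatocyte-like value with clusters thus rests on 603 pachytene and diplotene-like cells alone. The alternatives were not run for undifferentiated spermatogonia-like cells, whose levels stand side by side because WT held 19. Scrublet marked 1 WT cell (0.0185%), under the 0.5% of a working call, and 126 KO cells (1.97%). No paired analysis was possible because each genotype had 1 library. The WT leptotene part held only 21 cells, which limits its values, and Cdc6, Cdt1, Gins4, Rpa1 and Tyms had 0 UMIs there.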
